A study of Rattus norvegicus with 4 samples.

Results

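The renin-angiotensin system receptors and enzymes described here are 9 rat genes: the receptors Agtr1a, Agtr1b, Agtr2 and Mas1, the peptide precursor Agt, the renin receptor Atp6ap2, and the peptidases Ace, Enpep and Lnpep. They were found by the accession that the array design gives each probe, matched to the rat gene symbol. The rule uses no measured value. It found all 9 genes, read by 11 of the 45594 probes analysed and forming 9 of the 16580 genes with a name. Ace and Atp6ap2 had 2 probes each and the other genes 1, and each member probe was 1 spot on each array.

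Gene expression was measured by 1-colour microarrays on isolated vessels of male rats, with 4 arrays in 4 groups. The groups were vessels of rats with a PKCbeta deletion treated with angiotensin II (KO Ang II), vessels of such rats without it (KO control), vessels of Wistar rats with angiotensin II (WT Ang II) and vessels of Wistar rats without it (WT control). Treatment lasted 24 h. Each group held 1 array, and the design text names 4 rats per genotype. Not given in the sources used here are the vessel, the age of the rats, any pooling of their RNA, the dose of angiotensin II and how the deletion was made. The groups therefore have no replicates, and the single comparisons below carry no p-value. Errors on a value are those the scanner software estimated for the spot, and they cover technical error of 1 array only.

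Angiotensin II (Ang II) is made in steps. Angiotensinogen, the product of Agt, is cut to angiotensin I, and angiotensin-converting enzyme, the product of Ace, removes 2 residues from it to give Ang II. Rodents have a pair of genes, Agtr1a and Agtr1b, for the AT1 receptor, which couples to Gq and activates phospholipase C and protein kinase C, and which contracts vascular smooth muscle. Agtr2 encodes the AT2 receptor, which often opposes AT1, and Mas1 encodes the receptor of angiotensin-(1-7). Aminopeptidase A (Enpep) trims Ang II to angiotensin III, and the insulin-regulated aminopeptidase (Lnpep) is also known as the AT4 receptor, which binds angiotensin IV.

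A probe was called detected where the scanner software flagged its signal as well above background. That held for 41.4% of all probes on the KO Ang II array, 40.6% on KO control, 43.4% on WT Ang II and 43.5% on WT control. The deleted gene, Prkcb, had signals of 1.89 in KO Ang II and 1.94 in KO control, not detected, against 18.0 in WT Ang II and 14.8 in WT control, detected, for the probe with 9 to 10 spots. Its second probe was detected in WT Ang II alone, at 12.2, and it is unknown here whether either probe lies in the deleted part. Markers of the vessel wall were present: 8 of 10 endothelial genes (Tie1 and Emcn were not detected), 10 of 10 smooth muscle genes, 8 of 8 fibroblast genes and 6 of 6 pericyte genes, as well as 7 of 8 macrophage genes, 4 of 7 white adipocyte genes, 3 of 4 skeletal muscle genes, 3 of 4 Schwann cell genes and 5 of 5 lymphatic endothelial genes. None of 4 hepatocyte and none of 4 kidney genes was detected, and the liver is the organ that makes most angiotensinogen.

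On these arrays 4 of the 9 members, Ace, Atp6ap2, Enpep and Lnpep, were detected in all groups, with all 6 of their probes. Agtr1a was detected on both WT arrays and on neither KO array. Agtr1b, Agtr2, Agt and Mas1 were detected on no array. Over all probes 38.1% were detected on all 4 arrays and 53.0% on none. Values below are the processed signal divided by the 75th percentile of its array (the scaled signal), and log2 ratios are differences of its log2. Because probes bind with different strength, levels are compared between arrays for 1 probe and never between genes.

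**Figure D1:**
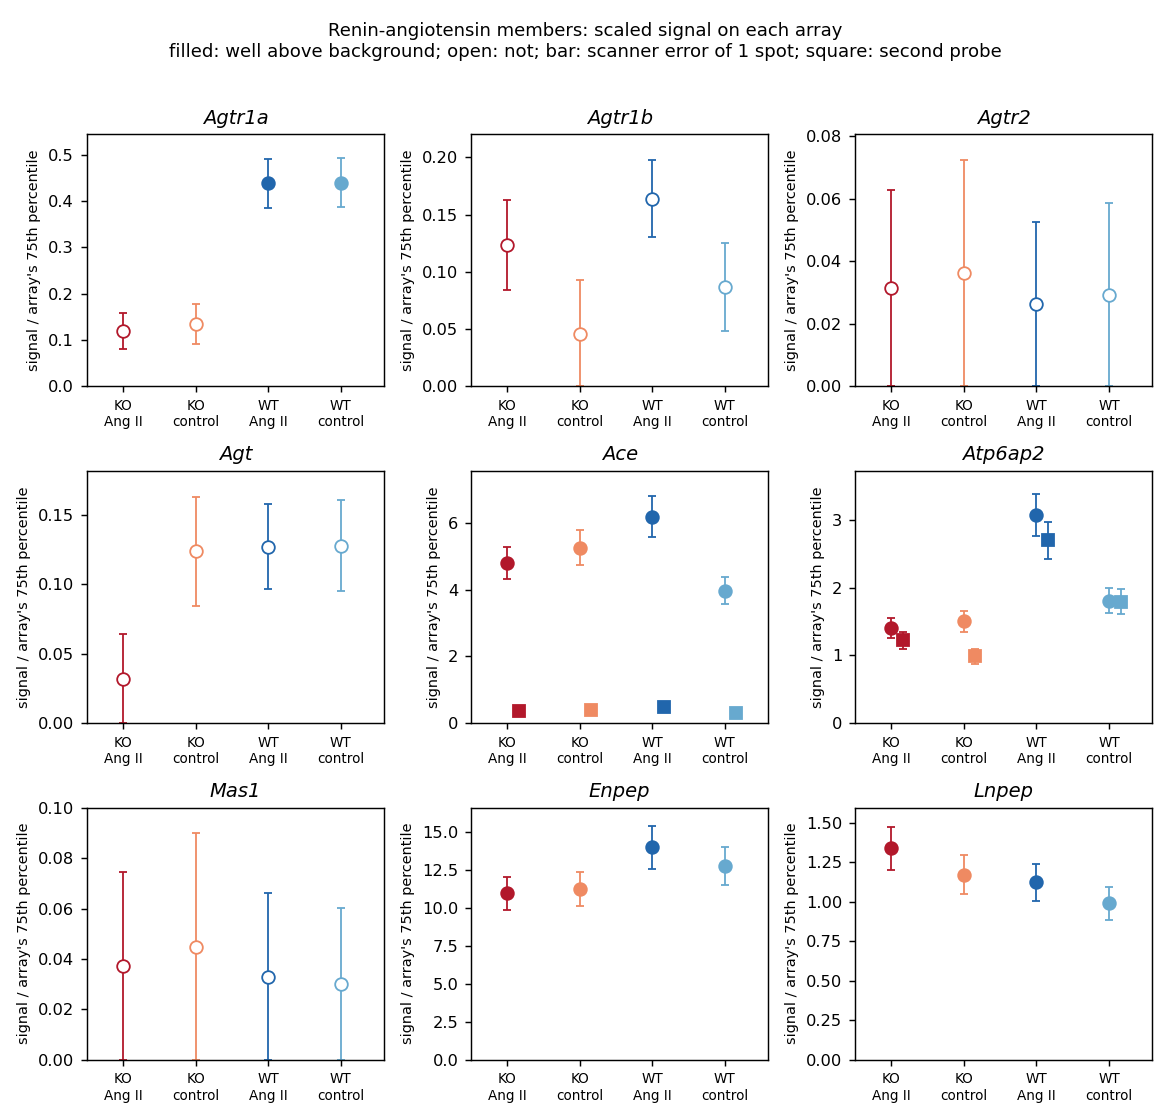
Scaled signal (processed signal divided by the 75th percentile of the array, linear axis from 0) of the 9 members on each array, 1 array per group. Filled marks are detected, open marks are not, squares are the second probe of Ace and Atp6ap2 (the dimmer one), and bars are the scanner's error of the spot, cut at 0. Agtr1a is near 0.44 on both WT arrays and at 0.120 and 0.134 in KO Ang II and KO control.

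Among the receptors, Agtr1a, the main AT1 receptor gene of rodent vessels, differed between genotypes. Its scaled signal was 0.120 in KO Ang II and 0.134 in KO control, against 0.439 in WT Ang II and 0.440 in WT control. In units of the scanner these were 6.25 ± 2.03 and 6.33 ± 2.04 on the KO arrays and 27.4 ± 3.32 and 25.9 ± 3.09 on the WT arrays (± the error of 1 spot). Both KO values lay below both WT values by more than these errors, and Ang II left each pair close together. Since the KO signals were not detected, the fold is a bound, taken against the lowest detected signal of the KO array.

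By this bound Agtr1a was at least 2.78-fold lower in KO than in WT with Ang II and at least 2.51-fold lower without it. The bounds themselves carry scanner error. In log2 they were -1.48 (scanner interval -2.46 to -0.49) with Ang II and -1.33 (-2.30 to -0.35) without, so both intervals reach less than 2-fold. The log2 ratio of Ang II over control in WT was -0.01 (95% interval of the scanner error -0.49 to 0.48). A signal detected on both WT arrays and on no KO array was found for 609 of the 18803 probes detected on both WT arrays, or 3.24%. The reverse pattern held for 97 of 17813, or 0.545%. In bulk tissue, fewer cells of a type and less RNA per cell cannot be told apart. With a background correction that adds an offset of 50 (normexp), the Agtr1a log2 ratios of KO over WT were -0.29 with Ang II and -0.24 without it. This offset is larger than every Agtr1a signal, so it draws the ratios toward 0 and cannot decide whether Agtr1a passed 2-fold. With it 1.34% and 1.05% of all probes passed 2-fold.

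Cell type markers moved with genotype too. Smooth muscle markers, whose cells carry the AT1 receptor, had a median log2 ratio of KO over WT of 0.48 with Ang II and 0.49 without it. Their summed scaled signal was 252 in KO Ang II and 237 in KO control, against 170 in WT Ang II and 184 in WT control. Fibroblast markers had a median of -0.87 with Ang II and -0.51 without, with sums of 413 and 465 on the KO arrays in the same order and 749 and 723 on the WT arrays. Macrophage markers had medians of -0.30 and -0.91, with sums of 27.6 and 22.6 in KO and 53.9 and 41.7 in WT. Endothelial markers had medians of -0.12 and -0.35, with sums of 23.1 and 21.4 in KO and 25.4 and 27.2 in WT. White adipocyte markers had medians of -0.45 and -1.05 over 4 genes, with sums of 3.66 and 3.18 in KO and 4.25 and 5.85 in WT. Lymphatic endothelial markers had medians of -0.98 and -0.48 over 5 genes, with sums of 144 and 160 in KO and 267 and 203 in WT. The Agtr1a values thus stood lower in KO beside smooth muscle markers that stood higher, and the part of cell composition in them was not tested.

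Agtr1b, the second AT1 receptor gene, was dim everywhere. Its scaled signal was 0.123 in KO Ang II and 0.0461 in KO control, against 0.164 in WT Ang II and 0.0867 in WT control. The higher value of each genotype was that with Ang II. None was well above background, and a looser flag of the scanner software, for signals positive and significant, held on every array but KO control, so no fold is given. Agtr1a and Agtr1b have closely related sequences, and cross-hybridisation between their probes was not tested.

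Agtr2, the AT2 receptor gene, had scaled signals between 0.0263 and 0.0362 and Mas1 had 0.0302 to 0.0449, each with an error about as large as the signal. Neither met the looser flag on any array. For both genes the arrays set an upper limit near background and show nothing about their order between groups.

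Promoters are shown for the pair of AT1 receptor genes, of which only Agtr1a was detected on any array. Those of Ace and Atp6ap2, which were both highest in WT Ang II, are shown too. Each is the 250 bases before the gene's start in the RefSeq annotation of GRCr8, read 5′ to 3′ on the gene's strand, from a table that held 8 of the 9 members, all except Agt. Capitals mark matches on either strand to the TATA box TATAAA, to GGGCGG, the box that Sp1 binds, and to the CCAAT box. Agtr1a lies at chr17:34435433-34435682 on the minus strand and Agtr1b at chr2:104849263-104849512 on the minus strand. Ace lies at chr10:91409879-91410128 on the plus strand and Atp6ap2 at chrX:12883671-12883920 on the minus strand. The gene model of Agtr1a reaches 91 bases further upstream than the start used here.
Agtr1a: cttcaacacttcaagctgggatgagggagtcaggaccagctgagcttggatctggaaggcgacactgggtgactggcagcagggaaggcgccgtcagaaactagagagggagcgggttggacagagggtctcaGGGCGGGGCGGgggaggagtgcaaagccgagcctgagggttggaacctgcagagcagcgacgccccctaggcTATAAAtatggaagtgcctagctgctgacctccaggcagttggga
Agtr1b: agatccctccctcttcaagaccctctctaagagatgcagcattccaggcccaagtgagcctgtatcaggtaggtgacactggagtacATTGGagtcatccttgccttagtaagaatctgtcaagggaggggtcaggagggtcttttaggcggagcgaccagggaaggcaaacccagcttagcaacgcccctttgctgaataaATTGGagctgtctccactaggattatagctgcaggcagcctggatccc
Ace: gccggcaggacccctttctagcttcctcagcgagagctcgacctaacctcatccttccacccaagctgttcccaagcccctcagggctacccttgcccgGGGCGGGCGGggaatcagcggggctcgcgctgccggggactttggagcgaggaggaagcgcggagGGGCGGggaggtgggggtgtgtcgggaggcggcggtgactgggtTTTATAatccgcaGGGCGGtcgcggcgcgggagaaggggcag
Atp6ap2: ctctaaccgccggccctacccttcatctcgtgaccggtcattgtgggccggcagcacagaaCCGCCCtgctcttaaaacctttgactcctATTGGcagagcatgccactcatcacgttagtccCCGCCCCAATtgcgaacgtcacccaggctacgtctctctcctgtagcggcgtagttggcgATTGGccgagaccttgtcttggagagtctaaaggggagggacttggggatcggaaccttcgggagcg

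The 2 AT1 receptor promoters shared none of these motifs. Agtr1a had 1 TATAAA match, 45 bases before the start, and 2 overlapping GGGCGG matches, with no CCAAT. Agtr1b had 2 CCAAT matches and neither of the others. Ace had 1 TATAAA match, 42 bases before the start, and 4 GGGCGG matches, some of them overlapping. Atp6ap2 had 2 GGGCGG and 3 CCAAT matches, of which 1 of each overlap, and no TATAAA.

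Among all 33469 promoters of this length in the table, 12.9% held TATAAA, 30.5% GGGCGG and 34.0% CCAAT on either strand. The AP-1 motif TGANTCA, in 6.34% of promoters, was in none of the 4 windows. G and C made up 60.8% of the Agtr1a window, 52.8% of Agtr1b, 69.2% of Ace and 58.8% of Atp6ap2, against a median of 51.2%. These matches describe the windows, and binding was not measured.

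Agt, the precursor of every angiotensin peptide and made mainly by the liver, was also not detected. Its scaled signal was 0.0318 in KO Ang II and 0.123 in KO control, against 0.127 in WT Ang II and 0.128 in WT control. Only the KO Ang II value stood apart, with a signal of 1.66 ± 1.67, and it alone missed the looser flag. When that flag was used to call a probe detected, a choice made after seeing the data, Agt in KO was over 2-fold lower with Ang II than in control and Agtr1b over 2-fold higher. Agt with Ang II was then also over 2-fold lower in KO than in WT. In each of these calls the probe entered through its brighter array only, as a bound that could not take the other sign. By the same flag 12.1% of all probes passed 2-fold for Ang II in KO, against 1.4% with the stricter one. For KO over WT with Ang II, 2450 probes were higher and 2951 lower past 2-fold by it, of 33770 compared. With the stricter flag these were 609 and 734 of 20469.

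Ace was detected everywhere and was highest in WT Ang II. Its brighter probe had scaled signals of 4.80 in KO Ang II and 5.26 in KO control, against 6.19 in WT Ang II and 3.97 in WT control. The dimmer probe, at 0.359 and 0.388 in KO and 0.489 and 0.308 in WT in the same order, put the 4 arrays in the same order. With Ang II, Ace was thus higher in WT and not in KO. The log2 ratio of Ang II over control in WT was 0.64 (scanner interval 0.24 to 1.04) for the brighter and 0.67 (0.10 to 1.23) for the dimmer probe, short of the 2-fold rule. In KO it was -0.13 (-0.53 to 0.27) and -0.11 (-0.70 to 0.48).

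Set against all probes compared in WT, 5.54% were as high as the brighter Ace probe or higher, and 4.92% as high as the dimmer one. KO over WT, Ace stood at -0.37 and -0.45 with Ang II and at 0.41 and 0.33 without it. Its direction between genotypes therefore turned with the treatment, and only the 0.41 had a scanner interval that left out 0, by a lower end of 0.0044 (upper end 0.81). The difference of the Ang II responses, KO minus WT, was -0.77 (-1.34 to -0.20) for the brighter probe and -0.78 (-1.60 to 0.04) for the dimmer one. The 2 probes differed by 0.01 in it, where the median gap between 2 detected probes of a gene was 0.27 over 1611 genes. With normexp, whose offset draws ratios of dim probes most toward 0, the Ang II value in WT was 0.48 for the brighter and 0.11 for the dimmer probe. Endothelial markers, whose cells carry much of the enzyme in vessels, had a median of 0.21 for Ang II in KO and -0.13 for Ang II in WT, where they ran from -1.25 to 0.57. Their part in the Ace values was not tested.

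Atp6ap2 encodes the (pro)renin receptor, which is also an accessory protein of the vacuolar proton pump. One probe had scaled signals of 1.40 in KO Ang II and 1.5 in KO control, against 3.08 in WT Ang II and 1.80 in WT control. The other probe had 1.22 in KO Ang II and 0.984 in KO control, against 2.70 in WT Ang II and 1.79 in WT control. On both, WT Ang II was the highest array and both KO values lay below both WT values.

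With Ang II, Atp6ap2 was 2.19-fold lower in KO than in WT by the first probe and 2.21-fold lower by the second, log2 ratios of -1.13 (scanner interval -1.54 to -0.73) and -1.14 (-1.55 to -0.73). Of all probes compared, 2.55% were as low or lower than the first and 2.48% than the second. Without Ang II the probes disagreed in size, at -0.27 (-0.67 to 0.14) and -0.86 (-1.28 to -0.45), a gap of 0.60 where the median gap over genes was 0.27. The 2 probes were alike with Ang II, 0.01 apart. With normexp, whose offset draws ratios toward 0, the values with Ang II were -0.90 and -0.75, short of 2-fold. Macrophage and fibroblast markers, given above, were also lower in KO, and their part in the Atp6ap2 values was not tested.

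Ang II over control, Atp6ap2 in WT stood at 0.77 (0.37 to 1.17) and 0.59 (0.19 to 0.99) by the first and second probe. In KO the values were -0.10 (-0.51 to 0.31) and 0.31 (-0.11 to 0.74), of opposite sign. The difference of the responses was -0.86 (-1.44 to -0.29) by the first probe and -0.28 (-0.86 to 0.31) by the second, so the genotypes' responses are set apart beyond scanner error by 1 probe and not by the other.

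**Figure D2:**
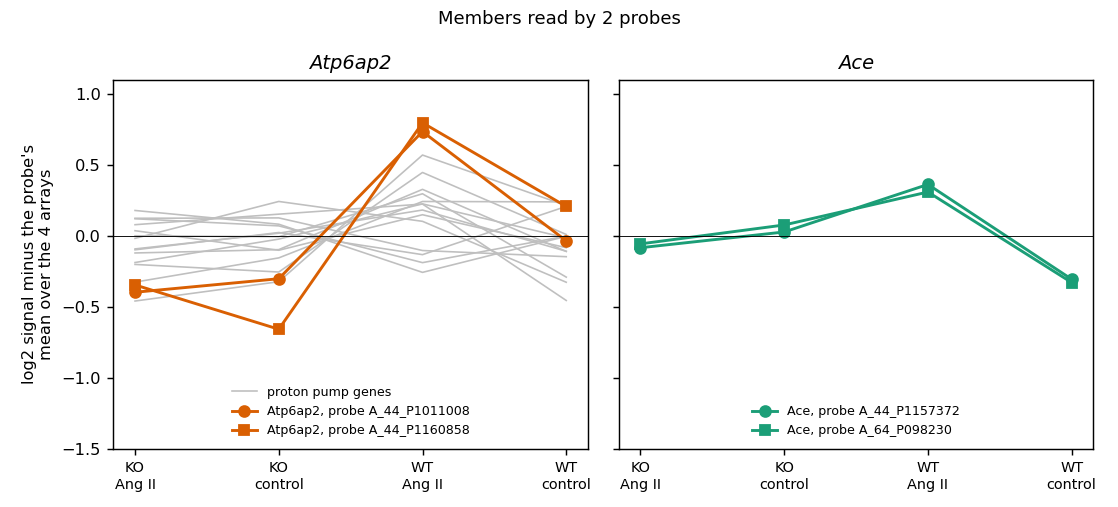
Log2 signal of each probe of Atp6ap2 (left) and Ace (right) minus that probe's mean over the 4 arrays, 1 array per group, with the proton pump genes detected on all arrays as grey lines. The 2 Ace probes overlie each other, and both Atp6ap2 probes peak in WT Ang II but part in KO control.

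The peptidases Enpep and Lnpep varied little. Enpep, which also marks pericytes, had scaled signals of 11 in KO Ang II and 11.3 in KO control, against 14.0 in WT Ang II and 12.8 in WT control. Both KO values lay below both WT values, by less than the scanner interval in each comparison: KO over WT was -0.35 (-0.75 to 0.05) with Ang II and -0.18 (-0.58 to 0.22) without. Its Ang II log2 ratio was -0.04 in KO and 0.13 in WT.

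Lnpep, a membrane peptidase of the vesicles that carry the glucose transporter GLUT4, had 1.34 in KO Ang II and 1.17 in KO control, against 1.12 in WT Ang II and 0.989 in WT control. Every log2 ratio was small and had a scanner interval that held 0. Ang II over control was 0.19 in KO and 0.18 in WT, and KO over WT was 0.25 with Ang II and 0.24 without. Lnpep was the only detected member whose measured values were higher in KO at both conditions.

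The 5 detected genes are set side by side against all probes as follows. For Ang II in KO, 0 of 6 member probes passed 2-fold, against 1.4% of all 19609 probes compared, and the median over member genes was -0.07 (all probes 0.00). For Ang II in WT, 0 of 7 passed, against 2.34% of 20856, with a median of 0.18 (all probes 0.02). KO against WT with Ang II, 3 of 7 passed, all lower (Agtr1a and both Atp6ap2 probes), where 6.56% of 20469 probes passed and 3.59% were lower. The median was -0.37, against 0.01. Agtr1a entered this comparison only through its WT array, as a bound that could not be higher, and is part of the count and median. Both Atp6ap2 probes read the same gene.

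KO against WT without Ang II, 1 of 7 passed, Agtr1a, lower, where 5.98% of 20437 probes passed and 2.75% were lower. The median was -0.18, against 0.02. Here too Agtr1a entered only through its WT array, as a bound that could not be higher. In the difference of responses 0 of 6 passed, against 4.49% of 17390, with a median of -0.47, against -0.02. The comparisons share arrays, so these counts are not separate evidence.

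**Figure D3:**
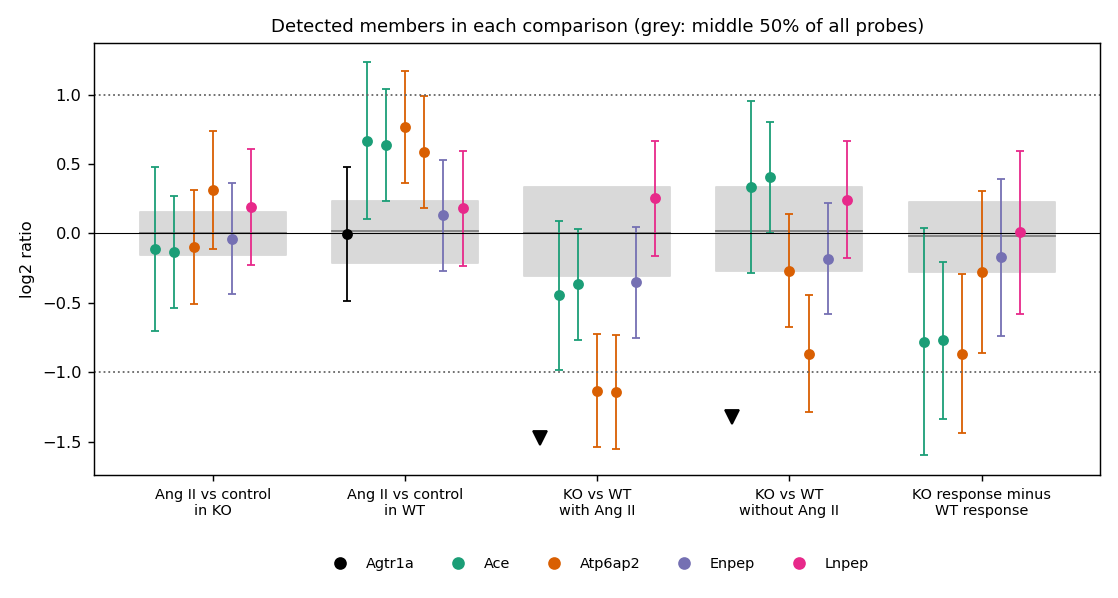
Log2 ratio of each detected member probe in the 4 comparisons and in the difference of the Ang II responses, KO minus WT. Points are values from single arrays, bars are 95% intervals of the scanner error, triangles are bounds for Agtr1a, grey boxes span the middle 50% of all probes with their median, and dotted lines mark 2-fold. Agtr1a and both Atp6ap2 probes lie below the lower line for KO against WT with Ang II.

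An additive fit of genotype and treatment over all 4 arrays gave the one test the design allows. It used limma over 19725 probes detected on at least 2 arrays, took dim values as read, and had 1 residual degree of freedom, which is the difference of responses itself, so its error is not a spread between replicates. For genotype, 0.0% of probes passed a Benjamini-Hochberg adjusted p of 0.05 (0 of 19725), with 4639 (23.5%) at an unadjusted p under 0.05. Of the 7 member probes 0 passed, and 2 were at an unadjusted p under 0.05. Agtr1a was 1 of these 2, but it entered the fit only through the WT arrays and its KO values are undetected, so its fitted value and p are not given.

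The second Atp6ap2 probe stood at -1.0 (SE 0.17, limma adjusted p = 0.140) and the first at -0.70 (SE 0.27, limma adjusted p = 0.231). Enpep and Lnpep had limma adjusted p of 0.377 and 0.388, at -0.27 and 0.25, and Ace had 0.02 and -0.06, with limma adjusted p of 0.965 and 0.902. For Ang II, 0.0% of probes passed (0 of 19725), with 815 (4.13%) at an unadjusted p under 0.05, and of the member probes 0 passed and 0 were under 0.05 unadjusted. With normexp, limma called 1736 probes for genotype (8.8% of those tested) and among members the second Atp6ap2 probe (adjusted p = 0.0238). With a trended, robust spread it called 2293 (11.6%), among them the second Atp6ap2 probe (adjusted p = 0.0132) and Agtr1a, whose call is not read for the reason given.

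Genes whose pattern over the 4 arrays was most like a member's were sought among 8587 named genes detected on all arrays, by the root mean square difference of log2 profiles centred on their own mean. For Ace the 3 nearest were Rilpl1, Gba2 and Mfge8 by the brighter probe (0.0094, 0.0227 and 0.0254) and Psmb9, Kcnd1 and Pno1 by the dimmer one (0.0111, 0.0224 and 0.0270). For Atp6ap2 they were Il13ra1, Morf4l2 and Tnfrsf9 by the first probe (0.0284 to 0.0320) and Vwce, Dnajb11 and Cert1 by the second (0.0412 to 0.0563). Few genes lay within 0.1 of Atp6ap2, 30 and 13 by its probes, against 164 and 144 for Ace. Such a fixed distance takes in fewer genes around a larger pattern. The log2 range over the arrays was 1.13 and 1.45 for Atp6ap2, against 0.64 and 0.67 for Ace.

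Enpep and Lnpep, with flatter patterns, had 843 and 534 genes within 0.1. Their nearest were Rhoj, Ripk1 and Atad1 for Enpep and Purb, Nemp2 and Ankrd49 for Lnpep. Over 4 arrays such likeness is a description.

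Other enzymes that make or clear angiotensin peptides, a list of 21 genes of which 20 had a probe, stayed within 2-fold. Of these 15 were detected, and Dpp4, Ctsg, Cpa3 and Klk1 were among the 5 that were not. None of 14 or 15 genes passed 2-fold in any single comparison, where 1.4% to 6.56% of all probes passed. List medians ran from -0.12 (Ang II in KO) to 0.05 (Ang II in WT). Ece1, endothelin-converting enzyme, had the largest Ang II value, -0.48 in KO and -0.85 in WT, and was higher in KO by 0.74 with Ang II and 0.37 without.

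Ece2, its relative, stood at -0.87 in KO over WT with Ang II and -0.45 without it. Prcp, a carboxypeptidase that cuts Ang II to angiotensin-(1-7), stood at -0.67 and -0.33 in the same comparisons. Npepps, the puromycin-sensitive aminopeptidase, stood at -0.37 and -0.77.

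Partners of the AT1 receptor and its G protein signalling, with the AT2 receptor partner Zbtb16 among them, formed a list of 24 genes. Of these 23 had a probe and 20 were detected (Grk3, Gna13 and Plcb2 were not). Medians were -0.07 for Ang II in both genotypes and 0.20 for KO over WT under both conditions. Past 2-fold were 0 of 19 genes for Ang II in either genotype. For KO over WT 1 of 20 passed with Ang II (Zbtb16) and 2 of 20 without it (Zbtb16 and Plcb4), all higher. Of all probes 6.56% and 5.98% passed in these 2 comparisons. Zbtb16, a partner of the AT2 receptor, had signals of 17.5 and 15.7 on the KO arrays with and without Ang II and was not detected at 5.15 and 2.91 on the WT arrays. It was at least 2.64-fold higher in KO with Ang II and at least 2.44-fold without. Zbtb16 entered both comparisons only through the KO arrays, so these bounds could not be lower. Its detection thus ran opposite to that of Agtr1a.

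Plcb4, a phospholipase C downstream of Gq, was 0.68 higher in KO with Ang II and 1.26 without, while its second probe gave 0.10 and 0.52. The guanine nucleotide exchange factors Arhgef11 and Arhgef12, which link G proteins to contraction, stood at 0.94 and 0.18 with Ang II and at 0.77 and 0.93 without. Arrb1, a beta-arrestin that uncouples the receptor, was the lowest of this list without Ang II, at -0.90, and stood at -0.51 with it.

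In the kinin and mineralocorticoid axis 7 of 10 genes were detected (Kng2, Hsd11b2 and Cyp11b2 were not), and list medians were -0.20 for Ang II in KO, 0.26 for Ang II in WT, and -0.53 and -0.22 for KO over WT with and without Ang II. Past 2-fold were 0 of 5 for Ang II in KO, 1 of 7 in WT (Bdkrb2, higher), 1 of 6 for KO over WT with Ang II (Hsd11b1, lower) and 0 of 6 without it, beside 1.4%, 2.34%, 6.56% and 5.98% of all probes. Bradykinin is inactivated by angiotensin-converting enzyme. For its inducible receptor gene Bdkrb1 the log2 ratio of Ang II over control was -0.52 in KO and 0.61 in WT. Bdkrb2, the constitutive receptor, was detected in WT Ang II alone and was at least 2.04-fold higher there than in WT control. It entered that comparison only through WT Ang II, so its bound could not be lower. For both receptor genes a second probe was detected on no array.

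Hsd11b1, which regenerates active glucocorticoid, stood at -1.65 in KO over WT with Ang II and -0.94 without. Its Ang II values were -0.20 in KO and 0.50 in WT. The kinase Sgk1, a mineralocorticoid target, stood at -0.97 and -0.88 in KO over WT, and the mineralocorticoid receptor Nr3c2 at -0.16 and 0.20. Fibroblast and macrophage markers, given above, were also lower in KO, and their part in these values was not tested.

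The proton pump genes that Atp6ap2 accompanies were all detected, 15 of 15. Their median was -0.07 for Ang II in KO, 0.24 for Ang II in WT, and -0.15 and 0.01 for KO over WT with and without Ang II. Past 2-fold were 0, 1 (lower), 1 (lower) and 0 of 15 in the same order, beside the same shares of all probes. Of the 14 detected on every array, 9 were highest in WT Ang II, as Atp6ap2 was, where 29.2% of all 17390 probes detected on every array were highest there. The difference of the responses, KO minus WT, had a median of -0.39, with 11 of 14 below 0, beside a median of -0.02 over all 17390 probes.

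Among the subunits of the membrane sector, Atp6v0b stood at 0.68 and Atp6v0c at 0.59 for Ang II in WT (0.86 by the second Atp6v0c probe), against -0.07 and 0.01 (-0.04) in KO. Atp6v0e1 stood at -1.03 in KO over WT with Ang II and -0.54 without, and Atp6v0d1 at -0.65 and -0.26. Atp6v1e1, of the soluble sector, was at least 2.57-fold lower with Ang II in WT, where it was not detected. It entered that comparison only through WT control, so its bound could not be higher. This bound is the gene counted above as past 2-fold for Ang II in WT.

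Genes of the GLUT4 vesicles that hold Lnpep, 6 of 6 with a probe detected, stayed within 2-fold in every single comparison, with medians from -0.03 to 0.07. In these comparisons 1.4% to 6.56% of all probes passed 2-fold. Scarb2, a lysosomal membrane protein, stood at 0.61 for Ang II in WT and -0.67 in KO over WT with Ang II. The vesicle fusion protein Vamp2 stood at 0.62 and 0.57 in KO over WT with and without Ang II, and the vesicle receptor Lrp1 at 0.33 and 0.53. Sort1, the sorting receptor sortilin, stood at -0.59 with Ang II and -0.01 without, and its second probe had the opposite sign, 0.58 with Ang II and a bound of 0.51 without.

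**Figure D4:**
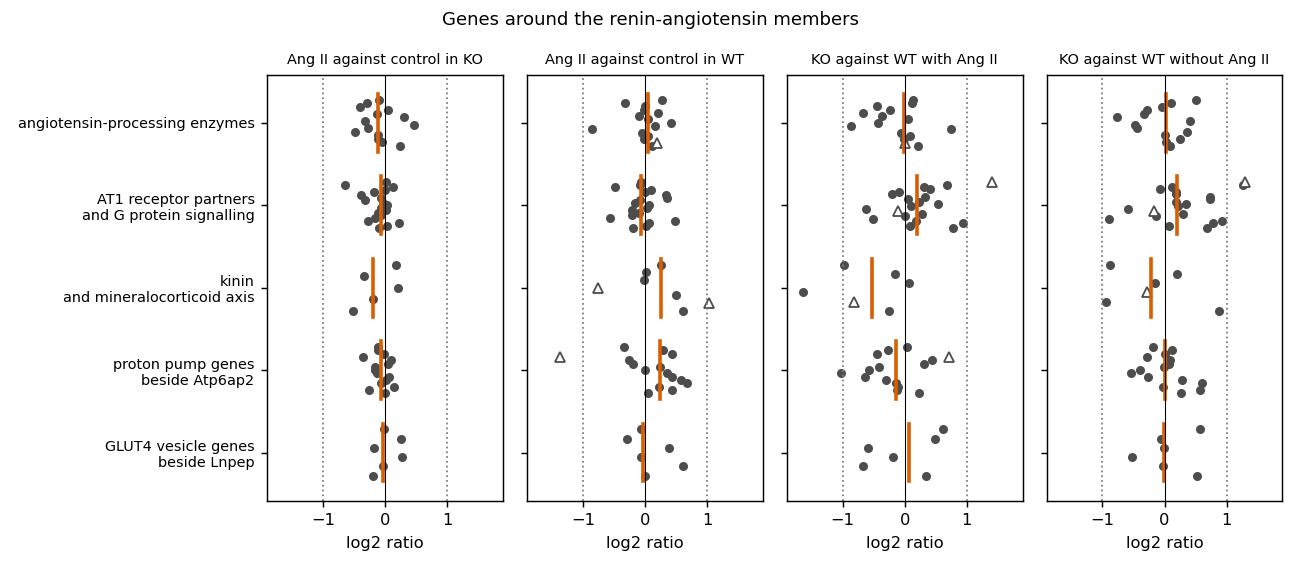
Log2 ratios of the detected genes in 5 lists around the members, 1 panel per comparison. Dots are genes by their brightest probe, open triangles are bounds, orange bars are list medians and dotted lines mark 2-fold. The proton pump median is -0.07 for Ang II in KO and 0.24 for Ang II in WT, and few genes pass a dotted line.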

How the data were processed

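RNA of the 4 groups was read on 4 one-colour Agilent arrays that lay on 1 slide and had 1 scan time in the file headers. Slide position was 4 for KO Ang II, 3 for KO control, 2 for WT Ang II and 1 for WT control, so position and group cannot be told apart. Cy3-labelled cRNA was made from total RNA, per the labels' protocols.

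The deposited scanner output holds intensity values for 58717 spots (45598 probes) per array. The processed signal is background-subtracted and spatially detrended by Agilent Feature Extraction and is not normalized between arrays, per the file headers. These give version 10.7.1.1, whereas the submitters' processing notes give 12.1.1.1. The authors' deposited table holds log2 values. Against log2 processed signals, each column was shifted by 1 constant, to within 0.01, in 98.0% to 98.1% of probes. Its centring beyond that constant is unknown, and column medians were 2.11 for KO Ang II, 2.27 for KO control, 2.22 for WT Ang II and 2.29 for WT control.

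Outlier spots (301 to 372 per array) were left out, no spot was saturated, and spots of a probe were averaged on the log2 scale, with 4 probes dropped. The value was log2 processed signal, with the 75th percentile of the array subtracted (52.1, 47.3, 62.4 and 58.7 for KO Ang II, KO control, WT Ang II and WT control). A gene in a list took its brightest probe. Accessions were matched to RefSeq symbols of GRCr8, used for names only, naming 21107 probes and leaving 24487 unnamed. For a bound, a dim side took its own value or, if larger, the lowest detected value on its array. Single comparisons used a 2-fold rule and no test, and intervals are 1.96 times the scanner's error at 95%. The number of arrays limits the precision. The additive fit used limma 3.58.1 in R 4.3.3 with Benjamini-Hochberg adjustment, after a run on simulated data. Python 3.11.15 (pandas 2.3.3, numpy 2.4.6) was used for the rest, with figures drawn in matplotlib 3.10.9.

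The members, gene lists and marker lists were chosen with earlier results of these data known. Named genes were the members, Prkcb, from each pathway list the 4 with the largest ratio in any single comparison plus any past 2-fold, and the 3 nearest patterns. The comparisons were repeated under 10 alternatives: normexp background (offset 50), the 75th percentile or median of detected probes, quantile normalization, no filter on dim probes, detection on all 4 arrays, outlier spots kept, the authors' values, a mean over a gene's probes, and a looser detection flag chosen after seeing the data. The fit was also repeated with a trended, robust spread.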

Additional observations from a re-analysis of the deposited data

Results flagged for a closer look

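Each result here is an Ang II log2 ratio that was below 0 in one genotype and above 0 in the other. With 1 array per group this difference was not tested, and 51.8% of the 17390 probes detected on all arrays had opposite signs. Values are the response in KO minus that in WT. Among the members these were Ace (-0.771 by the brighter probe and -0.779 by the dimmer one), Atp6ap2 by its first probe (-0.865) and Enpep (-0.17, within the scanner error).

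Among the named genes of the lists, to which this search was limited, Bdkrb1 had the lowest value, at -1.129. Arhgef12 stood at -0.755, Atp6v0b at -0.754, Hsd11b1 at -0.704, Scarb2 at -0.651 and Sort1 at -0.581. The second Sort1 probe had the same sign in both genotypes, 0.21 in KO and, as a bound, 0.13 in WT, where it was not detected in control. Atp6v0e1 stood at -0.492, Ece2 at -0.424, Nr3c2 at -0.356 and Prcp at -0.337. Npepps had a positive value, 0.403, with 0.30 in KO and -0.10 in WT.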

How the results depend on the processing

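Each member ratio was recomputed under the alternatives, 327 values in all. Of these 325 stayed within the scanner error of the reported value, 323 kept its sign and 0 reversed beyond that error. Some could not change. The no-filter, all-array and looser-flag settings alter only which probes are compared, so measured ratios stay the same under them. The mean over probes leaves genes with a lone probe as they were. The 2 values outside the scanner error were Agtr1a in KO over WT under normexp, at -0.29 with Ang II and -0.24 without. The normexp offset is larger than the Agtr1a signals, so this setting cannot decide whether Agtr1a passed 2-fold. The count of member probes past 2-fold was 0 under normexp for KO against WT with Ang II and 0 without Ang II. Without Ang II it was also 0 when detection on all 4 arrays was required, since Agtr1a then drops out. With no filter on dim probes it was 2 for Ang II in KO and 1 for the difference of responses. Among all 45594 probes, 1271 were then higher and 2676 lower past 2-fold for Ang II in KO. For the difference of responses these were 3437 and 4467. With the looser flag 2 member probes passed for Ang II in KO, where 12.1% of all probes passed. By that flag, as with no filter, Agt also passed 2-fold, lower, in KO over WT with Ang II, making 4 member probes there. Of the 33770 probes compared there by the flag, 2450 were higher and 2951 lower past 2-fold. The Agt signal in KO Ang II, 1.66 ± 1.67, was no larger than its error. In these looser-flag calls Agt and Agtr1b entered through their brighter array only, as bounds that could not take the other sign.

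In the additive fit 1 member probe was called for genotype under normexp and 2 under the trended, robust spread, of which Agtr1a entered only through the WT arrays. Over all probes normexp gave 0 higher and 5 lower past 2-fold for Ang II in KO (reported 59 and 216), 38 and 13 in WT (240 and 249), 59 and 216 in KO over WT with Ang II (609 and 734), and 74 and 140 without it (661 and 562). Requiring detection on all 4 arrays gave 145 and 85 for Ang II in WT. With no filter the median of all probes moved to -0.14 for Ang II in KO and to 0.14 and 0.23 for KO over WT with and without Ang II.

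The median over member genes for Ang II in KO changed sign, to 0.08 under normexp and 0.04 with a mean over a gene's probes, and that for KO over WT without Ang II became 0.03 over genes detected on all arrays. For the other moves the cause was not tested. No paired analysis was possible because the groups share a single replicate number. Signals near background limit Agtr1b, Agtr2, Agt and Mas1, whose ratios are not given (beyond the calls of the looser flag), and leave Agtr1a in KO as a bound.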
